A study of Mus musculus with 18 samples.

Results

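Coding joins that carry more than 3 inserted bases were examined in v-abl-transformed mouse B cells, early B-lineage cells kept growing by an oncogenic Abl kinase from a virus. Of 6903 coding joins on an integrated pMX-INV substrate, among 30937 junctions in all, 958 had 4 or more bases between the bait and the partner sequence. They are called long-insertion joins here and were chosen by the length of that gap alone, without regard to genotype or to which bases were inserted. Another 1641 coding joins had 1 to 3 inserted bases, 2048 were direct and 2256 used microhomology, a short overlap of the joined sequences.

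The substrate is a construct with a pair of recombination signals, and the joins were read by high-throughput genome-wide translocation sequencing (HTGTS), which starts from a fixed bait primer beside 1 of the breaks made by the RAG nuclease. The 12 libraries came from cells of strain 129 and 4 genotypes, which were CtIP A/A DNA-PKcs −/−, DNA-PKcs −/−, CtIP A/A and WT. Each genotype had 2 libraries from cells arrested in G2 (3 µM of the Abl inhibitor STI571 for 24 h, then 10 µM of the CDK1 inhibitor RO3306 for 48 h) and 1 from cells arrested in G1 (3 µM STI571 for 48 or 72 h). The 6 libraries without DNA-PKcs held 330 to 1471 coding joins each and the 6 with it held 166 to 831. The labels do not say whether libraries came from separate lines or cultures, so the p-values measure the spread between these libraries, which may be technical, and genotype cannot be told apart from cell line.

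In V(D)J recombination RAG leaves each coding end as a sealed hairpin, which Artemis opens together with the kinase DNA-PKcs. When a hairpin is opened away from its tip, the overhang adds palindromic P nucleotides to that end, the reverse complement of its own last bases. Terminal transferase (TdT) can add untemplated N nucleotides, often rich in G and C, before ligation, and CtIP promotes the removal of bases from ends. Inserted bases therefore hold a record of both kinds of addition, whereas deleted bases show trimming. TdT was not measured in these libraries.

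Among the tested sequence features of the inserted bases, palindromes were the one that differed past the threshold between the states of DNA-PKcs. The inserted bases with the longest palindrome are therefore shown first. Each is written 5′ to 3′ from the bait to the partner, with the palindromic bases in capitals. The bases of the signal heptamer happen to begin like a palindrome at either end, so the alignment often takes CA on the bait side or TG on the partner side as retained substrate. These bases are included in the sequences below and in every palindrome count, and they are not part of the 4 or more bases by which joins were chosen.
DNA-PKcs −/−, partner end, G2 replicates 1 and 2: ATTGTAGGCTG
DNA-PKcs −/−, partner end, G1 and G2 replicate 1: TTGTAGGCTG
DNA-PKcs −/−, partner end, G1 and G2 replicate 2: TGTAGGCTG
Both genotypes without DNA-PKcs, bait end, 4 libraries: CAGACGTT
CtIP A/A, partner end, G1: cccTAGGCTG
WT, bait end, G1: CAGACGTctatgttg
The sequence of 11 bases was the longest palindrome among the 958 joins. It occurred in both G2 libraries of DNA-PKcs −/− cells, next to bait ends that had lost 78 bp and 15 bp, so the lines were separate joins. The longest runs of the DNA-PKcs-present genotypes were 7 bases each. In the G1 library of DNA-PKcs −/− cells, 2 further joins held a palindrome of 5 or more bases from both ends at once, and they are shown because the whole insertion is made of the 2 runs. These 2 joins and the runs of 9 and 10 bases shown above were picked out after their values were seen.
DNA-PKcs −/−, both ends, first join: CAGACGTAGGCTG
DNA-PKcs −/−, both ends, other join: CAGACGGTAGGCTG
Of the insertions without such a palindrome, the longest of each genotype is shown. It had to start in coding sequence at both ends and share no run of 10 bases with the substrate. These were picked for length and do not stand for the other insertions, since 62.9% of the 958 joins had 4 to 6 inserted bases.
CtIP A/A DNA-PKcs −/−, 25 bases: accacgctctgatccagtcacgcgt
DNA-PKcs −/−, 20 bases: cttatccaacaacatccccc
CtIP A/A, 23 bases: agctggcctggcgcctaaccgtg
WT, 26 bases: cgacctcgcaacgtaccagtccagct
None of the 13 insertions of 20 or more bases, which include these 4, had an exact match in the mouse genome GRCm38.

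Long-insertion joins were fewer where DNA-PKcs was absent. In CtIP A/A DNA-PKcs −/− cells they made up 4.85% (16 joins) and 7.44% (50 joins) of coding joins in G2 and 3.94% (58 joins) in G1. In DNA-PKcs −/− cells they made up 5.76% (37 joins) and 4.76% (23 joins) in G2 and 4.17% (44 joins) in G1. All 6 of these libraries lay far below the others. In CtIP A/A cells the share was 25.8% (68 joins) and 32.5% (94 joins) in G2 and 34.3% (144 joins) in G1. In WT cells it was 27.8% (78 joins) and 24.7% (41 joins) in G2 and 36.7% (305 joins) in G1, so that the WT G1 library alone gave 305 of the 958 joins. The share averaged 5.16% ± 1.29 without DNA-PKcs and 30.3% ± 4.91 with it (SD, n = 6 each). Averaged over the 4 combinations of CtIP genotype and phase, the difference was −26.7 points without DNA-PKcs against with it (95% interval of the difference −30.9 to −19 points, adjusted p = 0.0167, two-sided exact permutation over 144 arrangements), in 4 of 4 combinations. The unadjusted p, 0.0139, is the smallest that this design can give. In sequencing run 1 the difference was −21.5 points and in run 2 it was −27 points.

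**Figure D1:**
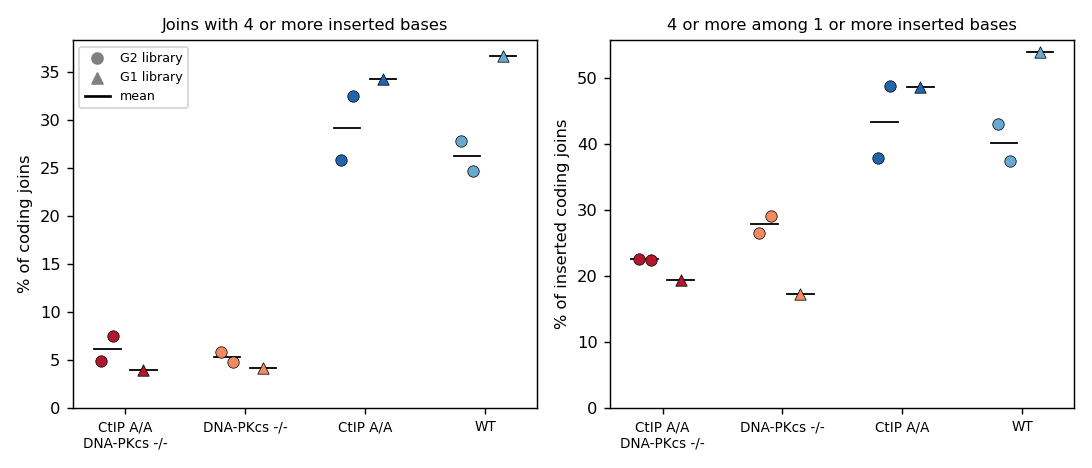
Share of long-insertion joins among coding joins (left, %) and among coding joins with 1 or more inserted bases (right, %), by genotype. Each point is 1 library (circles G2, triangles G1) and each black line a mean, and the 6 libraries without DNA-PKcs lie below all 6 libraries with it in both panels.

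Among joins with any inserted base, 22.8% ± 4.41 had 4 or more without DNA-PKcs and 44.8% ± 6.62 with it (SD, n = 6 each). The averaged difference was −24.7 points (interval −33.1 to −11.8, adjusted p = 0.0167, exact permutation). The gap length sets this share and genotype had no part in it, so the test compares libraries in the frequency of the chosen joins and is no separate evidence on length. The values on either side of the threshold are a description. Joins with exactly 3 inserted bases were 3.58% ± 0.897 of the coding joins in libraries without DNA-PKcs and 8.99% ± 0.869 in those with it. For exactly 4 inserted bases the shares were 1.67% ± 0.627 and 8.08% ± 0.870.

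Most long insertions were short ones. The median length was 5 or 6 bases in each of the 12 libraries, 62.9% of the 958 had 4 to 6 bases, 130 had 10 or more and 13 had 20 or more. The longest had 28 bases. No line of any table had a gap above 30, so longer insertions would not have been seen. In the plot of lengths, DNA-PKcs −/− libraries had more of their joins at 4, 5 and 6 bases and DNA-PKcs-present libraries more at 7 bases (5.20% ± 3.06 and 11.2% ± 1.87, SD, n = 6 each). The spread of lengths within the chosen joins was not tested.

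**Figure D2:**
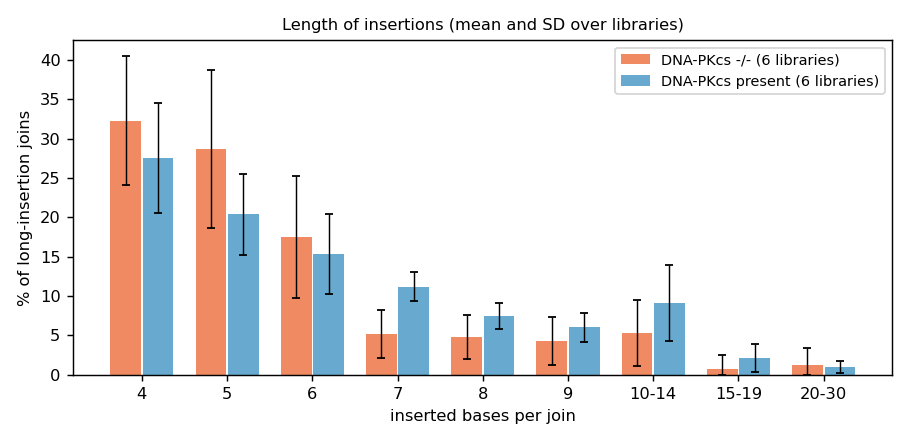
Insertion length in bases (x axis) against the share of long-insertion joins (y axis, %), as the mean of 6 libraries without DNA-PKcs and 6 with it. Error bars are 1 SD, clipped at 0 where they would run below it, and both groups are highest at 4 bases.

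Within the long-insertion joins, a class that is itself smaller without DNA-PKcs, palindromic bases next to the ends were more frequent without DNA-PKcs. A run of 3 or more palindromic bases next to an end stood in 18.8% and 18% of long-insertion joins in G2 and 25.9% in G1 of CtIP A/A DNA-PKcs −/− cells. In DNA-PKcs −/− cells the shares were 40.5% and 26.1% in G2 and 45.5% in G1. The libraries with DNA-PKcs gave 10.3% and 9.57% in G2 and 16% in G1 of CtIP A/A cells, and 21.8% and 12.2% in G2 and 14.4% in G1 of WT cells. The groups overlapped only through the first WT G2 library, at 21.8%. The share was higher by 16.4 points without DNA-PKcs (interval 6.4 to 28.3, adjusted p = 0.0167, exact permutation, 4 of 4 combinations), with 13.6 points in run 1 and 15.8 points in run 2. Restricted to insertions of 6 or more bases, the difference was 17.8 points and no longer passed (adjusted p = 0.0833, exact permutation).

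A run of 3 bases can also arise without a palindrome, because TG at the partner end may be retained heptamer and the third base is then a C, the most frequent inserted base. Of 317 undeleted partner ends with DNA-PKcs, 85 had a run of exactly 3 and 7 had a longer one. As a share of long-insertion joins, though not of all coding joins, runs of 5 or more separated the libraries without overlap. They stood in 18.8%, 8% and 13.8% of long-insertion joins of CtIP A/A DNA-PKcs −/− cells (G2, G2 and G1) and in 35.1%, 26.1% and 31.8% of those of DNA-PKcs −/− cells. With DNA-PKcs they stood in 2.94%, 2.13% and 0.694% of joins in CtIP A/A cells and in 2.56%, 0% and 1.97% in WT cells. The empty WT library had 41 joins, and a count of 0 there allows a share of up to 7.32%. At this length, a setting added after the data were seen, the difference was 20.8 points (adjusted p = 0.0167, exact permutation).

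**Figure D3:**
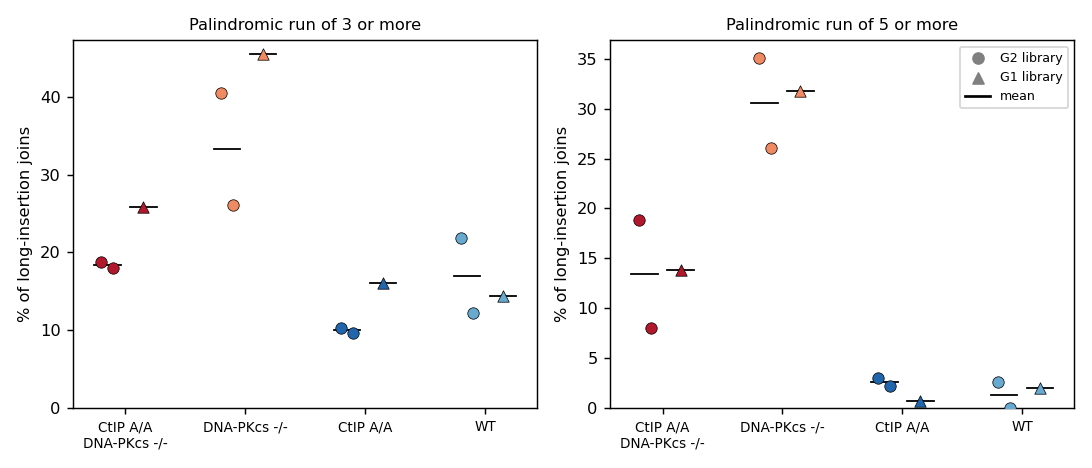
Share of long-insertion joins (%) with a palindromic run of 3 or more bases (left) and 5 or more bases (right), by genotype. Each point is 1 library (circles G2, triangles G1) and black lines are means, and on the right the lowest library without DNA-PKcs, at 8%, lies above the highest with it, at 2.94%.

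The longer palindromes lay next to ends that had lost no base. At undeleted bait ends, 23 of 55 long-insertion joins without DNA-PKcs had a run of 5 or more, against 9 of 93 with DNA-PKcs. At undeleted partner ends the counts were 27 of 67 and 4 of 317. At deleted ends no run reached 5 bases in either group, among 173 bait ends and 161 partner ends without DNA-PKcs and 637 bait ends and 413 partner ends with it. Runs of 8 or more occurred in 14 joins without DNA-PKcs and in 0 of 730 with it, which allows up to 0.411%. The most frequent long run at the bait end had 6 bases, found in 11 of the 55 undeleted bait ends without DNA-PKcs and 5 of the 93 with it. An insertion made of a palindrome alone must have at least 6 palindromic bases to be among the chosen joins. The choice of joins thus bears on this peak, which is no separate result on run length.

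**Figure D4:**
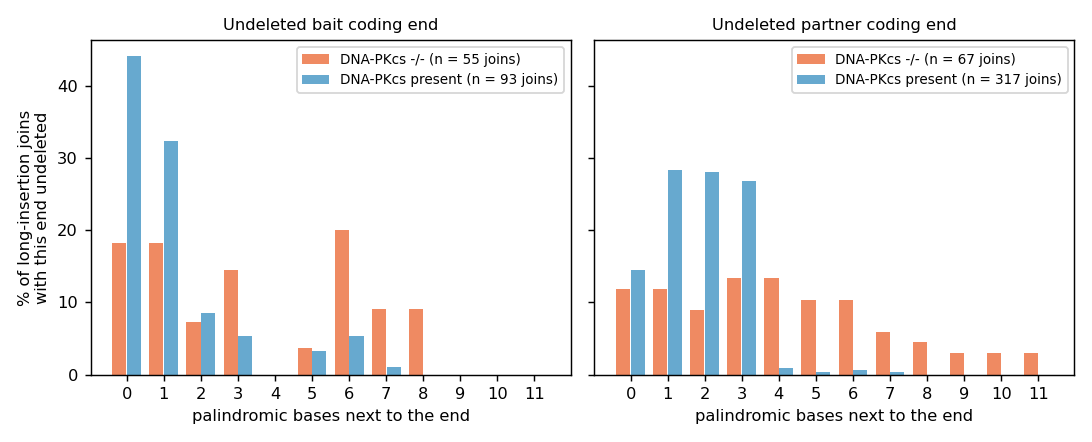
Number of palindromic bases next to an undeleted bait end (left) and partner end (right) against the share of long-insertion joins with that end undeleted (y axis, %), joins pooled over 6 libraries without DNA-PKcs and 6 with it. Runs beyond 3 bases at the partner end are mostly those of libraries without DNA-PKcs, and there are no error bars because single libraries hold few undeleted ends.

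As a share of all coding joins, rather than of long-insertion joins, the direction depended on the length of the run. Long-insertion joins with a run of 3 or more were 1.46% ± 0.551 of the coding joins in libraries without DNA-PKcs (0.909% to 2.34%) and 4.27% ± 1.50 in those with it (2.65% to 6.05%), so the ranges did not overlap and this share was the lower one without DNA-PKcs. With gaps of any length counted, runs of 3 or more stood in 4.77% ± 1.20 and 7.89% ± 1.43 of coding joins. For runs of 5 or more the means lay the other way. Long-insertion joins with a run of 5 or more amounted to 1.11% ± 0.553 of the coding joins in libraries without DNA-PKcs and 0.520% ± 0.320 in those with it (SD, n = 6 each). With gaps of any length counted, runs of 5 or more stood in 1.69% ± 0.870 and 0.600% ± 0.332. For these longer runs the groups overlapped, both among long-insertion joins (0.544% to 2.02% and 0% to 0.758%) and with any gap (0.744% to 2.73% and 0% to 0.963%). None of the shares of coding joins in runs of 3 or 5 was tested. An insertion made of a palindrome alone needs at least 6 palindromic bases to count as a long-insertion join, since 2 of them align as heptamer.

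The share of G and C together in the insertions did not differ past the threshold between the states of DNA-PKcs. Single bases were not tested between these states, and on average C was lower and G higher without DNA-PKcs, so they partly offset in the sum. Over 6427 inserted bases, C was the most frequent base in 11 of the 12 libraries, and G in the first DNA-PKcs −/− G2 library. C made up 33.3% ± 4.72 and G 30% ± 3.69 of inserted bases without DNA-PKcs, and C 40.3% ± 3.14 and G 26.2% ± 3.44 with it (SD, n = 6 each). Together G and C made up 63.2% ± 6.09 and 66.4% ± 1.31. The difference in G and C was −2.34 points (interval −9.6 to 3.4, adjusted p = 0.292, exact permutation), which leaves room for a change of several points either way.

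Along the insertion, the bait-side bases differed from the partner-side bases by −5.09 points in the share of C over the 12 libraries, which did not pass (adjusted p = 0.0757, exact sign-flip over 4096 arrangements, lower in 8 of 12 libraries). It was −10.9 ± 6.26 points without DNA-PKcs and 0.70 ± 3.55 with it (SD, n = 6 each). G differed by −3.69 points (adjusted p = 0.0757, exact sign-flip, 7 of 12). With the heptamer-aligned bases counted as inserted, the C difference became 10.1 points and the G difference −12.4 points, so the direction for C depends on how the ends are aligned.

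Long-insertion joins had larger median losses and more long deletions without DNA-PKcs, but not fewer undeleted bait ends. Undeleted bait ends were 23.8% ± 6.89 without DNA-PKcs and 12.7% ± 5.81 with it, and undeleted partner ends 28.2% ± 8.65 and 45.9% ± 7.44, which was not tested. The median loss was 8.67 ± 1.89 bp at the bait end and 8.58 ± 3.72 bp at the partner end without DNA-PKcs, and 5.42 ± 1.43 bp and 1.25 ± 0.758 bp with it (mean of library medians ± SD, n = 6 each). Bait deletions of more than 20 bp were found in 25%, 26% and 24.1% of long-insertion joins of CtIP A/A DNA-PKcs −/− cells (G2, G2 and G1) and in 27%, 30.4% and 38.6% of those of DNA-PKcs −/− cells. In CtIP A/A cells they were found in 16.2%, 7.45% and 14.6%, and in WT cells in 2.56%, 2.44% and 17.4%. The groups did not overlap, and the share was higher by 17.7 points without DNA-PKcs (interval 9.6 to 26.2, adjusted p = 0.0167, exact permutation), with 16.6 points in run 1 and 19.3 points in run 2. Joins with 1 to 3 inserted bases went the same way, with such bait deletions in 33.9% ± 10.4 without DNA-PKcs and 12.4% ± 6.53 with it, which was not tested.

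Partner deletions of more than 20 bp were found in 6.25%, 10% and 13.8% of long-insertion joins of CtIP A/A DNA-PKcs −/− cells and in 10.8%, 21.7% and 18.2% of those of DNA-PKcs −/− cells. In CtIP A/A cells the shares were 5.88%, 4.26% and 10.4%, and in WT cells 2.56%, 4.88% and 12.8%, so the groups overlapped. The difference was 6.1 points (interval 2.4 to 12.5, adjusted p = 0.0167, exact permutation). With deletions over 10 bp counted, the difference was 22.7 points at the partner and 16 points at the bait, so which end differs more depends on the length counted. Partner ends at position 2829, a loss of 16 bp, count over 10 bp but not over 20 bp. They took 16.6% ± 8.80 of long-insertion joins without DNA-PKcs and 5.75% ± 2.49 with it, and lie in a repeat of C described below. The difference at 20 bp did not pass without the first WT G2 library (5.81 points, adjusted p = 0.0667, exact permutation) or for insertions of 6 or more bases (11 points, adjusted p = 0.0833, exact permutation).

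Single end positions were compared as a description. Ends at partner position 2811 of the substrate, 2 bases before the first coding base at 2813, took 20.2% ± 10.4 of long-insertion joins without DNA-PKcs and 22.1% ± 4.01 with it. Position 2829 took 16.6% ± 8.80 and 5.75% ± 2.49. At the bait, whose first coding base is 1943, the end at 1941 took 14.8% ± 7.07 without DNA-PKcs and 2.68% ± 2.18 with it, and the end at 1947 took 2.96% ± 5.08 and 13.3% ± 4.75 (SD, n = 6 each). The end at 1941 is the one that a bait palindrome produces, with CA read as heptamer. Undeleted ends were 23.8% ± 6.89 and 12.7% ± 5.81 at the bait and 28.2% ± 8.65 and 45.9% ± 7.44 at the partner. Among the other coding joins, position 2829 took 4.68% ± 1.05 without DNA-PKcs and 1.77% ± 1.04 with it, and bait end 1947 took 2.36% ± 0.768 and 8.1% ± 2, in the same direction as among long-insertion joins. Bait end 1941 took 2.84% ± 1.30 and 5.9% ± 1.55 of them, the other way round. These positions were not tested.

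Set against the other joins of the same libraries, long-insertion joins had deletions of more than 20 bp less often than direct joins on average. Partner deletions of more than 20 bp were found in 10.1% of long-insertion joins and 28.3% of direct joins, a mean difference of −18.2 ± 15.5 points (SD, n = 12, adjusted p = 0.00586, exact sign-flip, lower in 11 of 12 libraries). This did not pass for deletions over 10 bp (−15.8 points, adjusted p = 0.0615, exact sign-flip), nor within the 6 libraries without DNA-PKcs or the 6 with it alone (adjusted p = 0.0938 and 0.281, exact sign-flip). For bait deletions the shares were 19.3% and 31.7%, a difference of −12.4 ± 14.9 points (adjusted p = 0.0312, exact sign-flip, lower in 7 of 12 libraries). The bait result did not pass when any of the 6 libraries without DNA-PKcs was left out (−12.4 to −10.2 points, adjusted p = 0.0625 each, exact sign-flip permutation).

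Both differences were larger without DNA-PKcs. Long-insertion joins had bait deletions of more than 20 bp less often than direct joins without DNA-PKcs, with a difference of −24.8 ± 9.97 points, while it was −0.07 ± 4.58 points with DNA-PKcs (SD, n = 6 each). For partner deletions the differences were −31.2 ± 9.84 and −5.17 ± 5.08 points. The contrast between the DNA-PKcs states was −26.8 points for either end (adjusted p = 0.0417 each, exact permutation over 144 arrangements, a test added after the data were seen). Of the direct joins, 53.3% ± 10.7 without DNA-PKcs and 10.2% ± 4.81 with it had bait deletions of more than 20 bp, and 44.7% ± 8.96 and 12% ± 7.70 had such partner deletions. With DNA-PKcs these shares left no room for a difference of −24.8 or −31.2 points. The contrast in points is thus bounded by the direct joins, and it was not tested on another scale. The medians did not all follow the shares of long deletions. The median bait loss of long-insertion and direct joins was 8.67 ± 1.89 bp and 24.2 ± 6.82 bp without DNA-PKcs, but 5.42 ± 1.43 bp and 3.17 ± 0.683 bp with it. The median partner loss was 8.58 ± 3.72 bp and 19.2 ± 4.02 bp without DNA-PKcs, and 1.25 ± 0.758 bp and 5.08 ± 3.14 bp with it (mean of library medians ± SD, n = 6 each). The aligner assigns each base either to the insertion or to an end, so that a base of a trimmed end that matches by chance shortens both the deletion and the insertion, and the measures of deletion and insertion are linked.

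**Figure D5:**
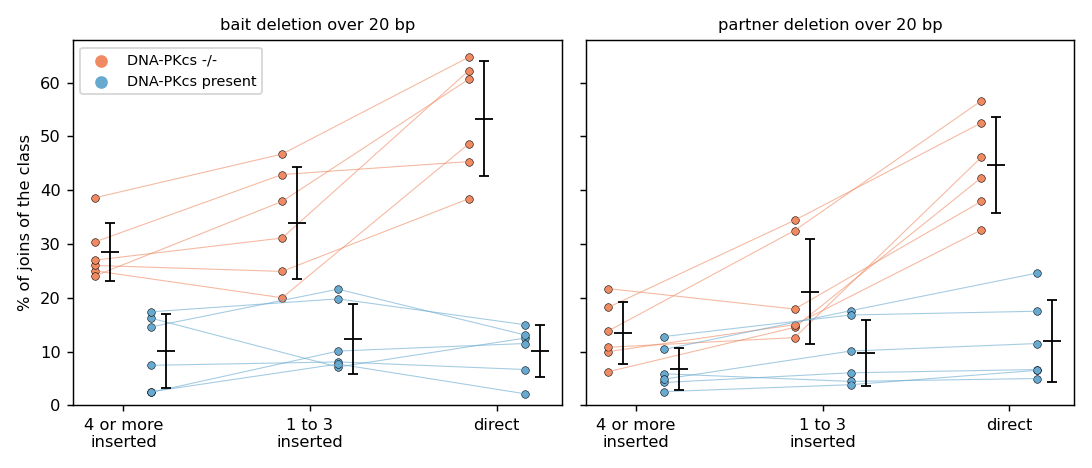
Share of joins with more than 20 bp deleted at the bait end (left) and the partner end (right), in %, for joins with 4 or more inserted bases, 1 to 3 inserted bases and none (direct). Points are libraries joined by lines, bars are mean and SD over 6 libraries, and the libraries without DNA-PKcs climb towards the direct joins while those with it stay below 25%.

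Against joins with 1 to 3 inserted bases the differences were smaller. Partner deletions of more than 20 bp were found in 10.1% of long-insertion joins and 15.5% of joins with 1 to 3 bases, a difference of −5.37 ± 6.64 points (SD, n = 12, adjusted p = 0.0312, exact sign-flip, lower in 10 of 12 libraries). It did not pass without the DNA-PKcs −/− G1 library or without any of the 3 CtIP A/A DNA-PKcs −/− libraries (−5.4 to −4.15 points, adjusted p = 0.0615 to 0.0625, exact sign-flip). Bait deletions differed by −3.83 ± 6.72 points (adjusted p = 0.0757, exact sign-flip, 9 of 12). Partner deletions of more than 20 bp stood in 21.2% ± 9.7 of joins with 1 to 3 bases without DNA-PKcs and 9.83% ± 6.14 with it, which was not tested.

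The CtIP A/A allele changed none of the 6 measures past the threshold. Averaged over DNA-PKcs state and phase, long-insertion joins made up 18.4% of coding joins with CtIP A/A and 18.1% without it, a difference of 0.287 points (interval −2 to 4.7, adjusted p = 0.806, exact permutation over 144 arrangements). Palindromic runs of 3 or more stood in 17.5% of them with CtIP A/A and 27.5% without it, a difference of −10 points (interval −20.5 to 0.1, p = 0.0556, adjusted p = 0.333, exact permutation). For runs of 5 or more the difference was −8.82 points (adjusted p = 0.375, exact permutation). Among the libraries without DNA-PKcs, the 3 with CtIP A/A all lay below the 3 others in runs of 5 or more, at 8% to 18.8% and 26.1% to 35.1%, but 3 libraries against 3, split by phase, cannot reach 0.05. The CtIP difference in runs of 3 or more was −17.3 points without DNA-PKcs and −2.76 points with it, and the difference between these was −14.5 points (p = 0.292, adjusted p = 0.584, exact permutation). Bait deletions differed by −2.80 points (interval −11.1 to 9.3) and partner deletions by −3.39 points (interval −8.1 to 1.3).

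The arrest phase changed none of the 6 measures past the threshold either. Long-insertion joins made up 16.7% of coding joins in G2 and 19.8% in G1, a difference of −3.08 points (interval −8.7 to 1.9, adjusted p = 0.444, exact permutation over 81 arrangements). Partner deletions of more than 20 bp stood in 8.3% of them in G2 and 13.8% in G1, a difference of −5.5 points (interval −10.5 to −0.2, p = 0.0494, adjusted p = 0.222, exact permutation), lower in G2 in 4 of 4 genotypes. Bait deletions of more than 20 bp stood in 17.1% and 23.7%, a difference of −6.55 points (adjusted p = 0.222, exact permutation). With insertions of 3 or more bases in place of 4, both passed, at −7.73 points for the partner and −9.72 points for the bait (adjusted p = 0.037 each, exact permutation). All G1 libraries were in sequencing run 2, with 1 G1 library per genotype.

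Most of the different inserted sequences were seen in a single library, and 97 were seen in 2 or more. The same count for other coding joins is not given here. The 958 joins held 720 different inserted sequences, of which 623 were seen in 1 library, and 956 were distinct in bait end, partner position and inserted bases within their library. Of the distinct joins, 19 recurred in another library. The most widely shared inserted sequence was TCCG, with 17 lines in 9 libraries, and 16 of the lines began at partner position 2829. The CCCT insertion, in 18 lines of 8 libraries, showed no such focus, with at most 3 lines at 1 partner position. GACG occurred in 10 lines of 7 libraries, 9 of them at bait end 1941, where with the CA before it the insertion is the palindrome of 6 bases. CCTC occurred once in each of 6 libraries. CCCC occurred in 16 lines of the 6 libraries with DNA-PKcs and in 0 of 228 joins without it, which allows up to 1.32%.

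The TCCG lines overlap a repeat in the substrate. The partner sequence holds a tract of 10 C from position 2828 to 2837, and TCCG stands in the substrate just before it. Of the 16 lines that began at 2829, 15 read TCCG followed by a tract with 1 C missing, which is the substrate sequence shortened by that base. Of the long-insertion joins, 148 began in the tract, namely 62 of 228 without DNA-PKcs and 86 of 730 with it. Of these, 76 matched nearby substrate in at least 4 bases, namely 37 of the 62 and 39 of the 86. Joins in the tract enter the median partner losses above, which are not given without them. Whether the tract changed in the cells, in amplification or in sequencing was not tested. With every join that matched nearby substrate left out, the difference in the share of long-insertion joins between the DNA-PKcs states kept its direction and passed, as did those in deletions and palindromes. The bait deletion difference was then 12.4 points, against 17.7 points with all joins. The partner deletion difference was 7.16 points, against 6.1 points with all joins.

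Matches between insertions and the substrate were about as many when the inserted letters were read backwards. A match of at least 4 inserted bases to substrate within 12 bp of the end was found in 64 of 228 long-insertion joins without DNA-PKcs (28.1%) and 128 of 730 with it (17.5%). With the letters of each insertion reversed, 59 (25.9%) and 118 (16.2%) matched. Among the 259 insertions of 8 or more bases, 118 shared 8 or more consecutive bases with either strand of the substrate read by the libraries, against 109 when reversed. Matches of 10 or more numbered 8 in either case. Matches of 12 or more numbered 3, and 0 when reversed, and the longest had 14 bases. All 3 were in libraries with DNA-PKcs, which held 219 of the 259 insertions against 40 in the libraries without it.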

How the data were processed

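HTGTS junctions of 12 libraries were used, and 6 libraries with I-PpoI breaks are not analysed here. Per the labels' protocols, sonicated DNA was amplified from a bait primer and sequenced, and per the submitters' processing notes Bowtie2 and mm10 were used. The junction caller is not given in the sources used here. Deposited tables list read positions of both alignments, and the deposited uncut and largegap columns are counts of bases per the file headers. Reads carry no molecular identifiers and need not be independent molecules, so the floors printed reflect counting error alone.

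A coding join lay on the substrate's plus strand at 2800 to 3813, and a count of 0 allows 3 counts. Substrate bases were taken as the majority of the reads. Differences were averaged over 4 strata and tested by two-sided exact permutation, and paired differences by exact sign-flip, both adjusted by Benjamini-Hochberg over 6 measures with a threshold of 0.05. The 95% intervals invert the permutation test. The joins, measures and named insertions were chosen with earlier results of these data known, and the insertion share is part of a larger class already known to differ. By rule, the 5 insertions found in the most libraries were named, with, for each genotype, the longest palindromic run at an undeleted end and the longest insertion of at most 30 bases from a join with both ends in coding sequence and no run of 10 bases shared with the substrate. Alternatives varied the gap, the alignment of heptamer bases, the deletion and palindrome lengths, the scale, the runs and the libraries. Python 3.11.15, numpy 2.4.6, pandas 2.3.3, scipy 1.17.1 and matplotlib 3.10.9 were used, and the scripts were tested on simulated data.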

Additional observations from a re-analysis of the deposited data

Results flagged for a closer look

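Of the differences within libraries, 3 had an unadjusted p under 0.05 in a test of whether they changed with DNA-PKcs, made by exact permutation over 144 arrangements and added after the data were seen, and 2 of them passed after adjustment. The difference between long-insertion and direct joins in bait deletions of more than 20 bp was −24.8 points without DNA-PKcs and −0.07 points with it, a change of −26.8 points. The same difference in partner deletions was −31.2 and −5.17 points, also a change of −26.8 points (unadjusted p = 0.0139 and adjusted p = 0.0417 for either end, exact permutation). With DNA-PKcs both differences were bounded by the direct joins, of which 10.2% had such bait deletions and 12% such partner deletions. The share of C in the bait-side minus the partner-side inserted bases was −10.9 points without DNA-PKcs and 0.70 points with it, a change of −11.9 points (unadjusted p = 0.0278, adjusted p = 0.0556, exact permutation), which did not pass. No library stood apart by the test of single values, which was run only within the 6 libraries without DNA-PKcs and the 6 with it.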

How the results depend on the processing

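The DNA-PKcs differences in the share of long-insertion joins, their share among inserted joins and bait deletions kept their direction and passed under every alternative that gives a test, in ranges of −32.2 to −15.5, −26.1 to −16.8 and 11.9 to 29.7 points. The DNA-PKcs difference in partner deletions ran from 6.16 points to 22.7 points, its highest value being for deletions over 10 bp, and that in palindromes from 15.1 to 27.2 points, and neither passed at a gap of 6 or more (11 and 17.8 points), where fewer joins remain. Of 247 alternatives with a test over 24 results, 211 kept direction and side of the threshold and 12 changed direction. Each sequencing run alone gives a value with no test, and 27 of these 30 values kept their direction. No DNA-PKcs difference changed direction. Libraries left out in turn are given further on. The count of joins per library, 16 at the lowest, limits single shares.

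At a gap of 3 or more, the phase differences in bait and partner deletions passed (−9.72 and −7.73), the bait difference between long-insertion and direct joins did not (−11.2), and the phase difference in the share among inserted joins turned to 2.12. At a gap of 6 or more, the CtIP difference in partner deletions turned to 3.39, the differences from joins with 1 to 3 bases in partner deletions (−3.94) and from direct joins in bait deletions (−11.7) no longer passed, and the difference in C along the insertion passed (−8.87). With heptamer-aligned bases counted as inserted, the CtIP difference in the share among inserted joins was 0.3, and the bait difference from joins with 1 to 3 bases (−7.99), the G difference (−12.4) and the turned C difference (10.1) passed. With joins starting in coding sequence at both ends alone, the share among inserted joins turned for CtIP (1.19) and phase (0.127), partner deletions against joins with 1 to 3 bases (−3.06) and bait deletions against direct joins (−7.54) did not pass, G passed (−9.15) and C turned (0.659). Palindromes give no value there, since their outermost bases align as heptamer. With no uncut base and a partner alignment of 30 bp or more, the C difference passed (−5.37). On the log odds scale the CtIP difference in bait deletions was 0.0784 and the phase difference in the share among inserted joins 0.0134. In run 1 alone the CtIP differences were −1.46 for the share of coding joins and 5.79 for bait deletions, and in run 2 alone 0.379 for the share among inserted joins. For deletions over 10 bp, the partner differences were 8.43 for CtIP and 0.463 for phase, and those from joins with 1 to 3 bases (−3.09) and from direct joins at the bait (−10.7) and the partner (−15.8, adjusted p = 0.0615, exact sign-flip) did not pass. Without joins that match nearby substrate, a setting chosen after seeing the data, bait deletions against joins with 1 to 3 bases passed (−5.95). Within the 6 libraries without DNA-PKcs the paired differences were −7.7, −24.8 and −31.2, and within the 6 with it −3.03, −0.0678 and −5.17, in the order of partner against 1 to 3 bases, bait against direct and partner against direct. None of these passed, as adjusted values over 64 arrangements hardly can, and C turned to 0.699 in the libraries with DNA-PKcs. The cause of these changes was not tested.

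Leaving out 1 library at a time, the ranges were, for DNA-PKcs, 4.73 to 7.46 in partner deletions and, passing each time, 11.5 to 18.6 in palindromes. For CtIP they were −0.559 to 1.19 for the share of coding joins, −2.7 to 0.0304 among inserted joins and −3.89 to 1.1 for bait deletions. For phase they were −5.25 to 2.85 among inserted joins and −3.34 to 0.983 for G and C. For the paired results they were −5 to −2.93 (bait) and −6.21 to −4.15 (partner) against joins with 1 to 3 bases, −13.9 to −10.2 (bait) against direct joins, and −6.03 to −3.97 for C.

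Among the G2 libraries, number 1 was sequenced in run 1 and number 2 in run 2, so the number stands for the sequencing run. Correlations of same-numbered libraries ran from −0.435 to 0.799, so they did not deviate together in every pair. With the replicate number as a block, the DNA-PKcs differences were −25.1, −22, 18.4, 6.67 and 15.1 for the share of coding joins, the share among inserted joins, bait deletions, partner deletions and palindromes (adjusted p = 0.0375 each, exact permutation), and no call changed for DNA-PKcs or CtIP. No paired analysis was possible for phase because the G1 libraries carry no number.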
